A study of Mus musculus with 32 samples.

Results

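The genes described here are 10 members of the bone morphogenetic protein (BMP) pathway: the ligands Bmp2, Bmp4 and Bmp7, the secreted antagonists Nog (noggin) and Chrd (chordin), the target genes Id1, Id2, Id3 and Id4, and Smad6, an inhibitor of the pathway inside the cell. They were taken by gene symbol and make up 10 of the 55492 rows of the deposited expression table. The series followed messenger RNA while mouse embryonic stem cells grew into retinal organoids, in 4 kinds of culture at days 0, 2, 4 and 6, with 2 libraries in each of 16 groups and 32 libraries in all. WT is the Rx:GFP stem cell line, named for a green fluorescent reporter of the retinal gene Rx (Rax). KO is the Mettl3 knockout of that line; Mettl3 encodes the enzyme subunit that methylates adenosines in RNA. The other cultures are the Mettl3 KO line overexpressing wild-type METTL3 fused to a domain that the labels call GRBD, either without dexamethasone ("no Dex") or with 10 µM dexamethasone ("Dex"). The labels place the fusion protein in the cytosol without Dex and in the nucleus with it. Cultures of days 2, 4 and 6 all held AGN at 0.1 µM, day 0 being undifferentiated stem cells with no AGN value given. Dex was not given to cells that lack the fusion protein, so an action of Dex itself and an action of the relocated protein cannot be told apart. The number of clones behind each line is not given in the sources used here.

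BMP ligands are secreted dimers that bind paired type I and type II receptors, which phosphorylate SMAD proteins that enter the nucleus with SMAD4 and switch target genes on. Noggin and chordin bind the ligands outside the cell and keep them from their receptors, while SMAD6 blocks the receptor and SMAD step from within and is itself a BMP target. The Id genes encode helix-loop-helix proteins without a DNA-binding domain, and they are standard readouts of BMP signalling. In mouse embryonic stem cells BMP4 and Id proteins hold off neural differentiation, and in the embryo BMP4 and BMP7 take part in forming the optic vesicle, lens and dorsal retina, while BMPs of the dorsal midline pattern the roof plate.

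Values are FPKM, the fragments counted on a transcript after division by its length and by the size of its library, and a log2 change is the difference between group means of log2(FPKM + 1), given ± its standard error (SE) from limma. A change counts as called when its p, adjusted over 16276 tested genes by Benjamini-Hochberg, is under 0.05, and "rose" and "fell" are used only of called changes. All 10 genes passed the filter on low values, Bmp2 only through the KO, no Dex and Dex cultures of day 6. A library held an estimated 28.5 M to 54.25 M fragments (M for mega). Whether duplicates were separate cultures is not stated, so adjusted p-values speak for the spread between these libraries, which may be technical. That spread was small, and large shares of all genes were called in every comparison. As a check of the labels, Mettl3 mRNA averaged 43.4 ± 0.672 FPKM (SD, n = 2) in KO and 35 ± 2.58 in WT at day 0. It was not lower in the cultures labelled KO, and a value for the whole gene cannot show which exons are intact, so it neither bears the label out nor contradicts it. Rax, the defining gene of the early retina, stood at 118 ± 4.71 FPKM in WT organoids of day 6, 54.7 ± 1.15 in Dex, 0.91 ± 0.17 in no Dex and 0.3 ± 0.0283 in KO. The KO and no Dex cultures of day 6, though labelled as retinal organoids, thus had this marker below 1 FPKM. In bulk RNA, fewer cells of a type and less RNA per cell cannot be told apart, which holds for every level below.

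**Figure D1:**
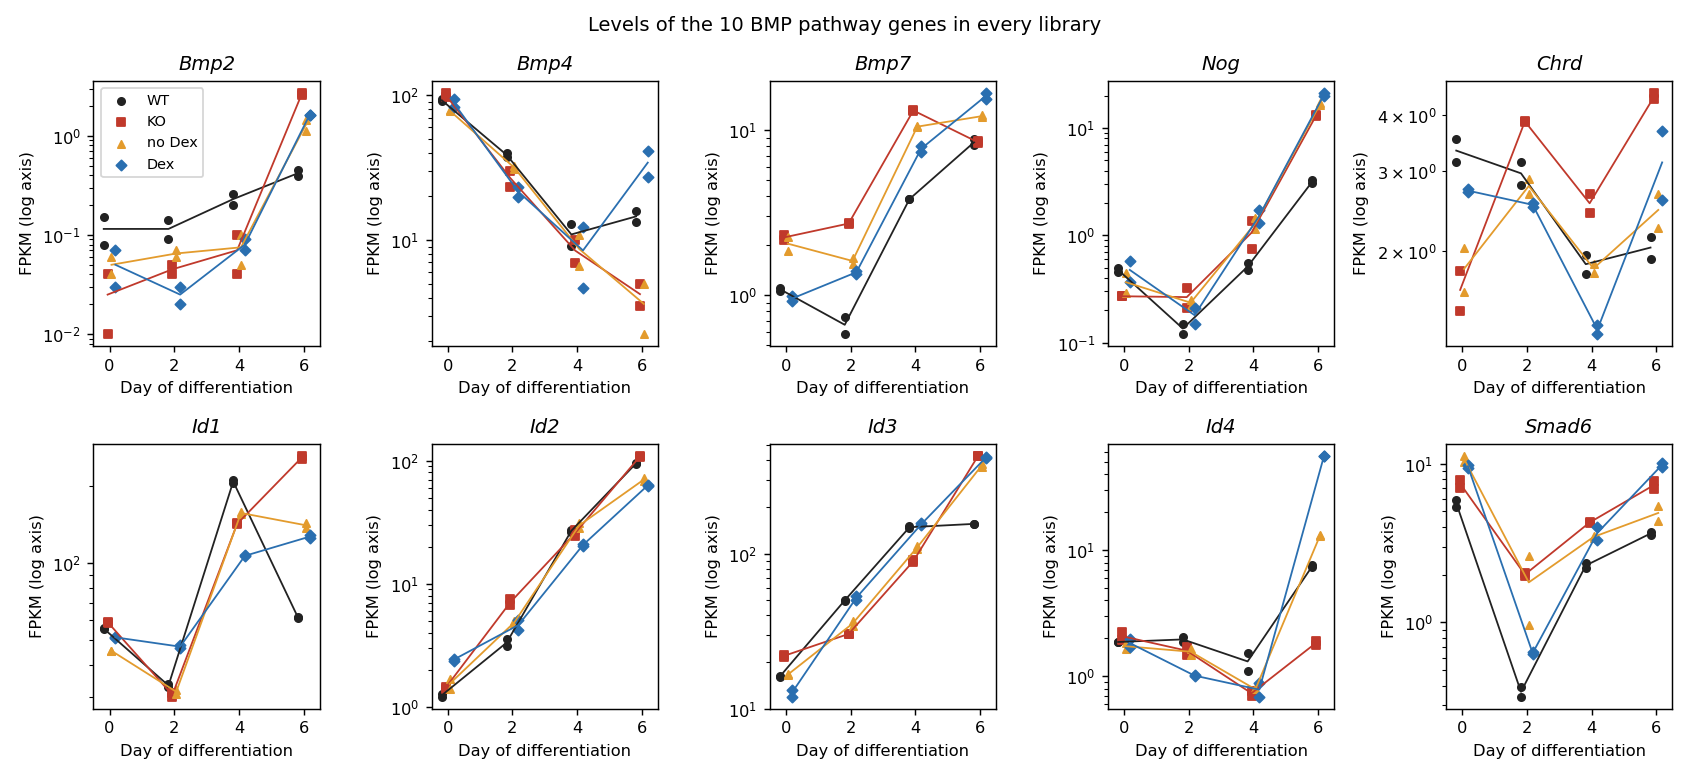
FPKM (log axis) of each of the 10 genes against day of differentiation; each point is a library, with colour and symbol giving the culture, and lines join the means of 2 libraries. Bmp4 fell from 77.8 to 103 FPKM at day 0 and stood at 41.3 and 27.1 FPKM in the Dex libraries of day 6, while Nog and Id2 ended far above their day 0 levels.

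The WT organoids moved from a ligand pool made almost wholly of Bmp4 to a smaller, mixed pool, and from an Id pool led by Id1 to a larger one led by Id3 and Id2. All 10 genes passed the test between days 0 and 6, 7 higher and 3 lower, where 78.1% of all tested genes were called (43.6% higher and 34.5% lower). Bmp4 (GRCm38 chr14:46383520-46390669, minus strand) measured 93.5 and 90.7 FPKM on day 0, 40 and 37.4 on day 2, 9.04 and 12.8 on day 4, and 15.8 and 13.3 on day 6. The duplicates of each of the first 3 days lay apart from those of the others, and the fall was called at both of its steps, by 1.23 ± 0.33 and by 1.75 ± 0.33 on the log2 scale. The day 4 to day 6 difference was 0.40 ± 0.33 (limma adjusted p = 0.3). Bmp7, whose product acts alone or paired with BMP4 or BMP2, rose after day 2. It measured 1.06 and 1.11 FPKM on day 0, 0.58 and 0.74 on day 2, 3.81 and 3.83 on day 4, and 8.82 and 8.11 on day 6, a rise of 2.18 ± 0.06 over the whole course. Bmp2 stayed low throughout, at 0.15 and 0.08 FPKM at day 0 and 0.45 and 0.39 at day 6. Bmp4 accordingly made up 98.7% of the summed ligand FPKM at day 0 and 62% at day 6, when Bmp7 made up 36.2%.

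Of the WT antagonists, Chrd led at first and Nog at day 6. Nog measured 0.45 and 0.5 FPKM on day 0, 0.15 and 0.12 on day 2, 0.55 and 0.47 on day 4, and 3.04 and 3.29 on day 6. Its last step, a rise of 1.46 ± 0.11 (2.42 with a pseudocount of 0.1), was its largest. Chrd measured 3.53 and 3.14 FPKM on day 0, 2.8 and 3.14 on day 2, 1.78 and 1.96 on day 4, and 2.15 and 1.92 on day 6, and it fell by 0.51 ± 0.10 between days 0 and 6. Nog made up 12.5% of the summed Nog and Chrd FPKM at day 0 and 60.9% at day 6. With a pseudocount of 0.1 in place of 1, the day 6 against day 0 change of Nog was 2.51 in place of 1.5, and that of Bmp2 was 1.29 in place of 0.35, since the larger pseudocount shrinks changes of low genes.

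The WT targets followed different courses. Id1 measured 55.2 and 56 FPKM on day 0, 33.8 and 33 on day 2, 205 and 211 on day 4, and 61 and 61.9 on day 6. It peaked at day 4, rising by 2.60 ± 0.03 into that day and falling by 1.74 ± 0.03 after it. Id2 rose at every step, from 1.28 and 1.21 FPKM through 3.54 and 3.11 and then 26.5 and 27.3 to 96.2 and 93.6, and its mean at day 6 was 76.2 times that of day 0. Id3 climbed from 16.2 and 16.1 FPKM through 50.3 and 49.6 to 151 and 146 at day 4, and stood at 156 and 156 at day 6, with no call for the last step. Id4 measured 1.89 and 1.86, then 1.88 and 2.05, then 1.1 and 1.53 FPKM, and reached 7.7 and 7.31 at day 6, a last step of 1.88 ± 0.08. Smad6 fell from 5.33 and 5.93 FPKM on day 0 to 0.39 and 0.34 on day 2, by 2.28 ± 0.17 (a change of -3.62 with a pseudocount of 0.1), and then rose to 2.19 and 2.37 on day 4. At day 6 it measured 3.68 and 3.57 FPKM. Its day 6 against day 0 change, -0.52 ± 0.17, was -0.45 (adjusted p = 0.0571) without replicate 2 of WT day 0. The rise of Smad6 from day 4 to day 6, 0.50 ± 0.17, lost its call without replicate 1 of either day (0.48, adjusted p = 0.0567, and 0.46, adjusted p = 0.0684). Over the whole course Id1 differed by 0.14 ± 0.03, and after rescaling the libraries by median-of-ratios factors by 0.05 (adjusted p = 0.0753). The summed Id FPKM went from 74.9 on day 0 to 88.6 on day 2, then 384 on day 4 and 320 on day 6, and the share of Id1 in it went from 74.3% on day 0 to 19.2% on day 6.

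**Figure D2:**
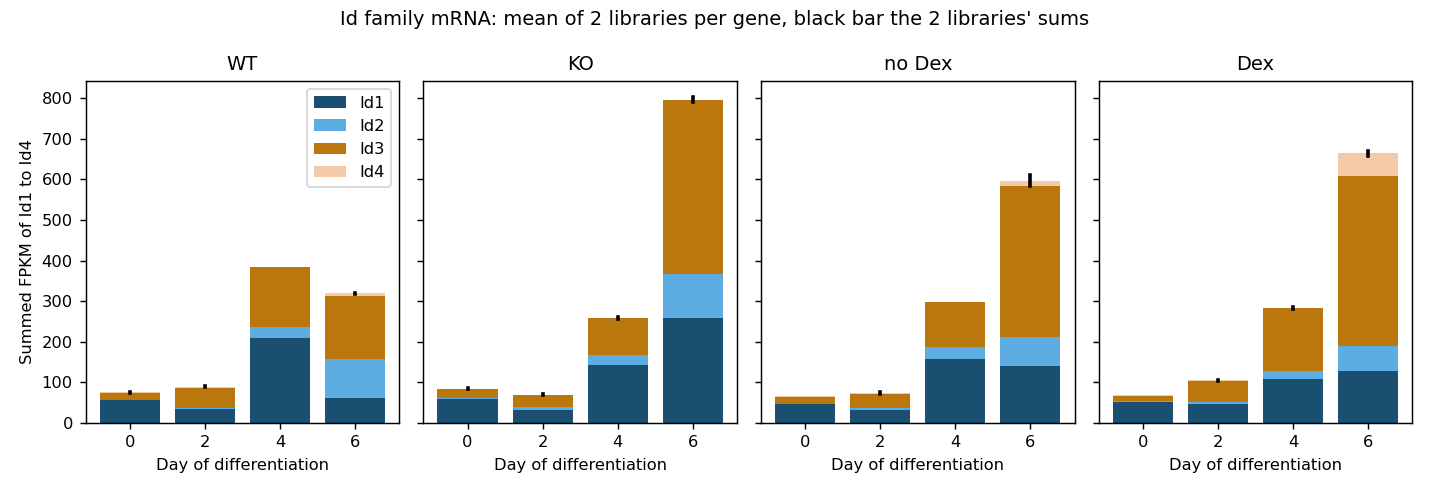
Summed FPKM of Id1, Id2, Id3 and Id4 (stacked bars, mean of 2 libraries per gene) against day in each culture; black bars span the sums of the 2 libraries. The WT sum was highest at day 4 and the sums of KO, no Dex and Dex were highest at day 6, at 797, 597 and 664 FPKM.

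For the members whose promoter sequence was matched, 4 target windows are shown, because these genes took different levels at day 6 and each window holds a short SMAD-type motif. Windows run from 250 bases before the RefSeq transcription start to 30 bases after it, on GRCm38.p6, read 5′ to 3′ on the gene's strand, with motif matches in capitals. They are Id2 at chr12:25096063-25096342 on the minus strand, Id3 at chr4:136143572-136143851 on the plus strand, Id4 at chr13:48260866-48261145 on the plus strand and Smad6 at chr9:64022030-64022309 on the minus strand.
Id2: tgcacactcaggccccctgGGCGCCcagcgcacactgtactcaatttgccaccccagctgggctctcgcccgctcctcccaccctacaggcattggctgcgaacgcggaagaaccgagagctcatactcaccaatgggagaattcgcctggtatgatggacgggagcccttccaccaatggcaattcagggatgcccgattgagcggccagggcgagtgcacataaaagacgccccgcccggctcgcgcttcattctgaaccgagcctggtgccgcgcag
Id3: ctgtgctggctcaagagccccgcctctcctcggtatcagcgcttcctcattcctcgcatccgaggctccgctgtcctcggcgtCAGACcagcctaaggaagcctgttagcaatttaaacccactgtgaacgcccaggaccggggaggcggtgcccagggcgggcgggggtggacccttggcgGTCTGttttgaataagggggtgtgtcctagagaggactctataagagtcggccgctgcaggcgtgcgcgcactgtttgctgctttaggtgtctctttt
Id4: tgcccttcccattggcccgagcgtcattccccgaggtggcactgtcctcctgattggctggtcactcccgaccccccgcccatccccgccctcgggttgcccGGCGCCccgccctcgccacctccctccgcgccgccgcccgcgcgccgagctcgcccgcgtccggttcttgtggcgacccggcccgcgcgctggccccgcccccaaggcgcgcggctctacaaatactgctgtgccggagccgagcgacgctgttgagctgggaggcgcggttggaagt
Smad6: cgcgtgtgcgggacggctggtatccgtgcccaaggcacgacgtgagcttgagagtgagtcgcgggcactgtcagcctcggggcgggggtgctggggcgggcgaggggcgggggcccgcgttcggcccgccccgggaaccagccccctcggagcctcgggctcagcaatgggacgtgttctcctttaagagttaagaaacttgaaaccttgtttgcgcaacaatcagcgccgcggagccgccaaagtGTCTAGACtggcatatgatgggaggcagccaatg
Both strands were searched for 3 motifs, which do not overlap each other in these windows. The palindrome GTCTAGAC, a doubled SMAD box, occurred in Smad6 from base -4 to base 4 around the start and in 0.192% of 32851 RefSeq promoter windows of this length. The GC-rich site GGCGCC occurred in Id2 from base -231 to -226 and in Id4 from base -148 to -143, as it did in 10.9% of all windows. The shorter site GTCTG, or CAGAC on the other strand, occurred in Id3 from base -167 to -163 and from base -68 to -64, and in 46.8% of all windows. Chrd held a GC-rich site and a short site, and Bmp4 held none of the 3 motifs. Entries matched 6 of the 10 genes; Id1, Bmp2, Bmp7 and Nog had none. A match is a run of letters, not a measured binding site.

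The knockout was compared with WT at each day. At day 6 KO organoids had less Bmp4 and Id4 mRNA, more Bmp2, Nog, Chrd, Id1, Id3 and Smad6, and a Bmp7 level within the WT spread. Of the 10 genes 9 were called, 7 higher (30.9% of all tested genes) and 2 lower (34.2%), against 65.1% in either direction, a background so high that the sizes say more than the count. With a size of 1 or more on the log2 scale also required, 6 of 10 were called, 4 higher (5.32% of all tested genes) and 2 lower (4.69%), against 10% in either direction. Both counts of higher genes include Bmp2, which passed the filter only through day 6 cultures other than WT, so its call was favoured in advance. The median change over the 10 was 0.84 and over all tested genes -0.03.

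Among the ligands at day 6, Bmp4 measured 3.48 and 4.97 FPKM in KO, below both WT libraries, and its mean was 0.29 times that of WT (log2 change -1.58 ± 0.33, limma adjusted p = 0.00028). At the earlier days Bmp4 measured 103 and 96.9 FPKM on day 0, 23.4 and 29.9 on day 2, and 9.92 and 6.96 on day 4 in KO, and no difference from WT was called. Bmp7 was higher in KO than in WT at days 0, 2 and 4, when it measured 2.16 and 2.31, then 2.72 and 2.71, and then 13.2 and 13.2 FPKM. These differences were 0.63 ± 0.06, 1.16 ± 0.06 and 1.56 ± 0.06, and no KO library of those days overlapped WT. By day 6 KO measured 8.34 and 8.54 FPKM of Bmp7, within the WT range, and the difference was -0.00 ± 0.06 (adjusted p = 0.98). With the pseudocount of 0.1 the day 0 and day 2 differences of Bmp7 were 0.98 and 1.90. Bmp2 was at 0.01 to 0.1 FPKM in KO libraries of days 0 to 4, near the floor of 0.0169 to 0.0325 FPKM that 3 fragments allow, and reached 2.61 and 2.7 FPKM at day 6. Its day 6 mean was 6.32 times the WT mean. Bmp2 passed the filter only through the KO, no Dex and Dex cultures of day 6. Its call against WT was thus favoured in advance and adds nothing to these levels. The KO ligand pool of day 6 was thus 55.2% Bmp7, 27.4% Bmp4 and 17.4% Bmp2, with a sum of 15.3 FPKM against 23.4 in WT.

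Both antagonists were higher in KO at day 6. Nog measured 13.2 and 13 FPKM, 4.14 times the WT mean (1.76 ± 0.11), with both libraries far above both WT libraries. Chrd measured 4.33 and 4.47 FPKM, 2.16 times the WT mean (0.83 ± 0.10). Chrd had stood lower than WT in KO stem cells, at 1.81 and 1.47 FPKM (-0.72 ± 0.10), so its difference turned between days 0 and 6 (interaction 1.55 ± 0.14). At day 4 the KO duplicates of Nog lay apart, at 1.37 and 0.74 FPKM. The call of Nog at that day, 0.43 ± 0.11, held without replicate 2 of KO at 0.65 and was lost without replicate 1 at 0.20 (adjusted p = 0.108); with the pseudocount of 0.1 it was 0.87. The summed antagonist FPKM of day 6 was 17.5 in KO and 5.2 in WT.

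The targets did not move as a block in KO. Id1 measured 254 and 262 FPKM at day 6, 4.2 times the WT mean (2.05 ± 0.03), where the WT level had already dropped from its day 4 peak. At day 4 KO Id1 had been lower than WT, at 142 and 143 FPKM (-0.54 ± 0.03). Id3 showed the same order of events, lower than WT on day 2 with 30.5 and 30.2 FPKM (-0.70 ± 0.04) and on day 4 with 88.5 and 90.5 FPKM (-0.72 ± 0.04), and higher on day 6 with 428 and 429 FPKM (1.45 ± 0.04). In stem cells of day 0 KO had more Id3 than WT, with 21.6 and 22.2 against 16.2 and 16.1 FPKM (0.42 ± 0.04). Id2 was higher in KO at day 2, with 6.7 and 7.48 FPKM (0.90 ± 0.07). At day 6 it measured 107 and 109 FPKM (0.19 ± 0.07), and that call was lost when any of the 4 libraries was left out (0.17 to 0.21, adjusted p from 0.0686 to 0.139), with a pseudocount of 0.1 and without the filter. Id4 was the exception in direction, at 1.78 and 1.92 FPKM in KO and 0.25 times the WT mean (-1.58 ± 0.08). Smad6 measured 7.73 and 6.96 FPKM at day 6 in KO, 2.03 times the WT mean (0.85 ± 0.17), and at day 2, when WT was at its low, 2.04 and 1.96 FPKM (1.14 ± 0.17, or 2.18 with the pseudocount of 0.1). The summed Id FPKM of KO was 69.7 on day 2, 258 on day 4 and 797 on day 6, against 88.6, 384 and 320 in WT.

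The count of called members before day 6 was 4 on day 0 (48.2% of all tested genes were called), 7 on day 2 (58.9%) and 8 on day 4 (60.5%). Several of these calls were lost on leaving out a single library. At day 0 the change of Id1, 0.08 ± 0.03, was 0.08 without replicate 2 of KO (adjusted p = 0.0545) and 0.07 without replicate 1 of WT (adjusted p = 0.063). At day 2 that of Chrd, 0.30 ± 0.10, lost its call without either KO replicate (0.29 and 0.30, adjusted p = 0.0618 and 0.0567) or replicate 1 of WT (0.23), and with rescaling (0.23, adjusted p = 0.0539). Id4 at day 2, -0.19 ± 0.08, lost its call without replicate 2 of KO (-0.13) or either WT replicate (-0.23 and -0.15), and with the replicate number as a block (adjusted p = 0.0526), which made the count 6. At day 4 Bmp2, -0.20 ± 0.06, lost its call without replicate 1 of KO or replicate 2 of WT (-0.16 and -0.17). Its KO mean was 0.304 times that of WT, and with a pseudocount of 0.1 the change was -0.97 (adjusted p = 0.00166). At the same day Id4 differed by -0.41 ± 0.08, or -0.75 with that pseudocount, and lost its call with the compared groups alone (adjusted p = 0.0506). Chrd, at 0.31 ± 0.10, lost its call without replicate 2 of KO or replicate 1 of WT (0.26 and 0.26). The change of the KO effect between days 0 and 6, tested as an interaction, was called for 8 of 10 members, against 56.9% of all tested genes, and is given with its values in the closing section.

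**Figure D3:**
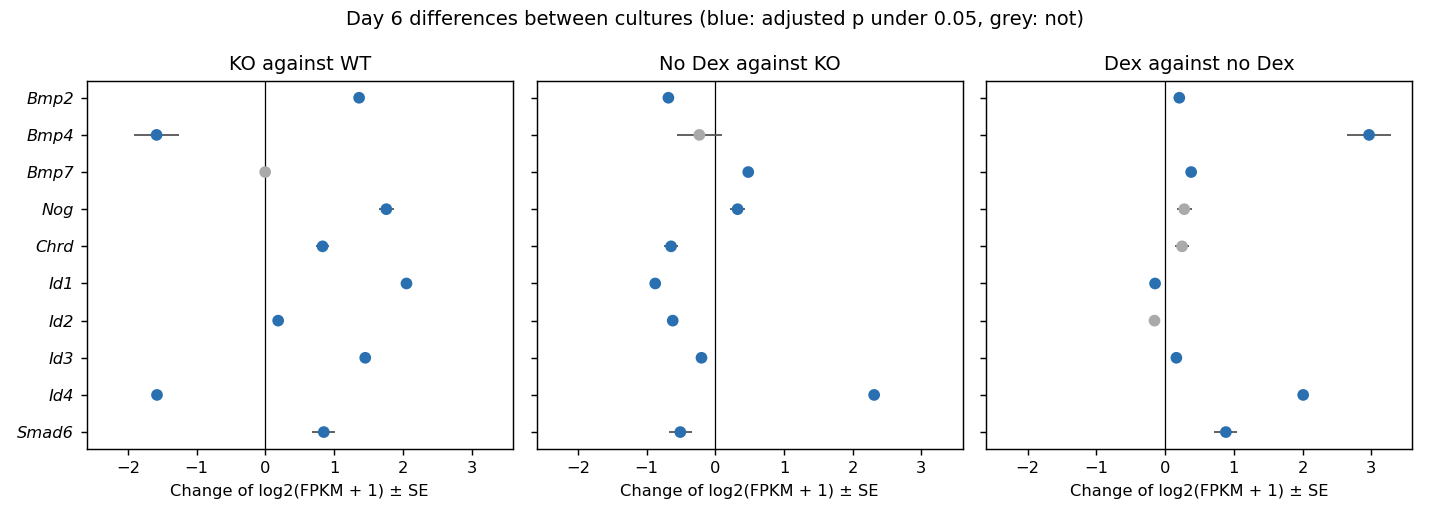
Log2 change (x axis, difference of mean log2(FPKM + 1), bars ± SE) of each gene at day 6 in KO against WT, no Dex against KO and Dex against no Dex; blue points were called and grey points were not. Bmp4 and Id4 were lower in KO than in WT and rose with Dex by 2.97 and 2.01; Id4 was also 2.31 higher in no Dex than in KO.

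The fusion protein without Dex was compared with KO, which shares its libraries with the comparison above. At day 6 the no Dex cultures had more Id4, Bmp7 and Nog mRNA than KO and less Bmp2, Chrd, Id1, Id2, Id3 and Smad6. These 9 of 10 members were called, 3 higher (21.1% of all tested genes) and 6 lower (27.9%), against 49% in either direction. With a size of 1 or more also required only Id4 was called, higher (0.946% of all tested genes, and 2.03% in either direction). Id4 measured 13.3 and 13 FPKM, 7.11 times the KO mean (2.31 ± 0.08) and above both WT libraries too. Bmp4 measured 2.24 and 4.99 FPKM and overlapped KO, with a log2 change of -0.23 ± 0.33 (limma adjusted p = 0.61). Bmp7 measured 12 and 12.3 FPKM (0.48 ± 0.06) and Bmp2 1.11 and 1.46 FPKM (-0.68 ± 0.06). Nog measured 17 and 16.3 FPKM, 1.27 times the KO mean. Its change, 0.33 ± 0.11, lost its call without replicate 1 of no Dex (0.30, adjusted p = 0.0978), without replicate 1 or 2 of KO (0.34 and 0.32), and with a pseudocount of 0.1 (0.35, adjusted p = 0.244). Chrd measured 2.25 and 2.68 FPKM (-0.64 ± 0.10). Id1 measured 137 and 144 FPKM, 0.544 times the KO mean (-0.87 ± 0.03), and Id2 67.6 and 72.5 FPKM (-0.62 ± 0.07). Both lay below the 2 KO libraries, and Id2 below WT as well. Id3 measured 366 and 380 FPKM (-0.20 ± 0.04), with both libraries above both WT libraries, as in KO. Smad6 measured 4.35 and 5.42 FPKM, and its change of -0.51 ± 0.17 lost its call without replicate 1 of no Dex (-0.38, adjusted p = 0.152) or replicate 1 of KO (-0.44, adjusted p = 0.102), and with a pseudocount of 0.1 (-0.59, adjusted p = 0.058) or the compared groups alone (adjusted p = 0.051). Before day 6 the members called were 3 on day 0 (49.1% of all tested genes), 4 on day 2 (37%) and 4 on day 4 (26.7%), with no member changed by as much as 1. Among these, Smad6 at day 0 (0.47 ± 0.17) kept its call in 1 of 4 fits without a library, being lost without replicate 1 (0.53, adjusted p = 0.05) or 2 (0.41) of no Dex or replicate 2 of KO (0.39), and also with a pseudocount of 0.1 (adjusted p = 0.0942) and without the filter (adjusted p = 0.0541). Calls were likewise lost for Chrd at day 2 (-0.36 ± 0.10) without replicate 2 of no Dex (-0.32), and Chrd at day 4 (-0.33 ± 0.10) without either no Dex replicate (-0.35 and -0.31) or replicate 2 of KO (-0.28).

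Dex was compared with no Dex in the same fusion line. At day 6 Dex cultures had more Bmp4, Id4 and Smad6 mRNA, while the levels of Id1, Id2 and Id3 lay within 0.2 of no Dex on the log2 scale. The test called 7 of 10 members, 6 higher (23.8% of all tested genes) and 1 lower (19%), against 42.7% in either direction. With a size of 1 or more also required Bmp4 and Id4 were called, both higher (1.01% of all tested genes, and 1.52% in either direction). Bmp4 measured 41.3 and 27.1 FPKM, 9.46 times the no Dex mean (2.97 ± 0.33, limma adjusted p = 4.9e-07), and both libraries exceeded every day 6 library of the other cultures. Its duplicates differed by a factor of 1.52 in Dex and 2.23 in no Dex, yet the groups did not overlap. Id4 measured 55.8 and 56.1 FPKM, 4.26 times no Dex (2.01 ± 0.08) and 7.46 times WT. Smad6 measured 9.54 and 10.1 FPKM, 2.01 times no Dex (0.88 ± 0.17). Bmp7 measured 15.5 and 16.8 FPKM (0.38 ± 0.06), the highest of the 4 cultures. Id3 measured 414 and 422 FPKM (0.16 ± 0.04), and Id1 125 and 128 FPKM (-0.15 ± 0.03). Id2 measured 63.6 and 62.1 FPKM (-0.15 ± 0.07, adjusted p = 0.11), below both no Dex libraries without passing the test. Nog measured 21.1 and 19.8 FPKM (0.28 ± 0.11, adjusted p = 0.0503, or 0.0322 with the compared groups alone) and Chrd 2.59 and 3.69 FPKM (0.25 ± 0.10, adjusted p = 0.056). Bmp2 measured 1.64 and 1.62 FPKM, and its change of 0.21 ± 0.06 lost its call with a pseudocount of 0.1 (adjusted p = 0.295), with the compared groups alone (adjusted p = 0.201), without replicate 1 of Dex (0.20, adjusted p = 0.0562) or replicate 1 of no Dex (0.10, adjusted p = 0.271) and was 0.32 without replicate 2 of no Dex.

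The Dex differences of Bmp4 and Id4 grew between days 0 and 6 by 2.79 ± 0.46 and 1.96 ± 0.11, tested as an interaction (7 of 10 members called, against 48.7% of all tested genes). Bmp4 measured 94.1 and 83.4 FPKM with Dex on day 0, 19.9 and 23.2 on day 2, and 12.2 and 4.69 on day 4, against 77.8 and 78.9, then 30.8 and 32.3, and then 10.8 and 6.56 without it, with no call on these days. For Id4 the Dex libraries measured 1.7 and 1.98, then 1.01 and 1.02, then 0.88 and 0.69 FPKM. Its call at day 2 was a change of -0.35 ± 0.08, or -0.58 with a pseudocount of 0.1. Id1 was higher with Dex at day 2, with 48 and 46.6 against 32.1 and 31 FPKM (0.57 ± 0.03), and lower at day 4, with 107 and 106 against 158 and 156 FPKM (-0.55 ± 0.03). Id3 was higher with Dex at both of those days, by 0.55 ± 0.04 and 0.49 ± 0.04. Smad6 at day 2 turned on a single library: no Dex measured 2.61 and 0.96 FPKM and Dex 0.63 and 0.65. The change was -0.70 ± 0.17 with both no Dex libraries, -0.26 (adjusted p = 0.0581) without replicate 1 and -1.14 without replicate 2, and -1.20 with a pseudocount of 0.1. At day 0, where the labels mark samples as Dex treated although Dex is named in the treatment protocol for 2, 4 and 6 days alone, Bmp7 was lower with Dex, at 0.92 and 0.98 against 2.25 and 1.85 FPKM (-0.64 ± 0.06, or -1.03 with that pseudocount). Members called were 5 on day 0 (43.4% of all tested genes), 4 on day 2 (44.3%) and 5 on day 4 (40.2%), and that of Chrd on day 4, -0.27 ± 0.10, was lost when any of the 4 libraries was left out (-0.25 to -0.29); with that pseudocount it was -0.42. The call of Chrd at day 0, 0.40 ± 0.10, was lost without replicate 1 of no Dex (0.30, adjusted p = 0.0599).

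Set against WT, whose libraries the KO comparison also used, the Dex organoids of day 6 had a higher level of 9 members and a lower level of Id2. All 10 were called, 9 higher (29.2% of all tested genes) and 1 lower (32.2%), against 61.4% in either direction. The 9 include Bmp2, whose call the filter favoured, as in KO against WT. With a size of 1 or more also required 6 were called, all higher (3.12% of all tested genes, and 5.9% in either direction). Nog was 6.46 times WT (2.36 ± 0.11), Id3 2.68 times (1.42 ± 0.04), Smad6 2.71 times (1.23 ± 0.17), Id1 2.07 times (1.03 ± 0.03) and Bmp7 1.91 times (0.86 ± 0.06). Bmp4 was 2.35 times WT (1.15 ± 0.33), and that call was lost without replicate 1 of Dex (0.86, adjusted p = 0.0734). The change of Chrd, 0.44 ± 0.10, was 0.24 without replicate 2 of Dex and lost its call in a fit of the compared groups alone (adjusted p = 0.0999). Id2 was 0.662 times WT (-0.59 ± 0.07). For Bmp4 the day 6 order was Dex, WT, and then KO and no Dex, the last 2 overlapping. For Nog it was Dex, no Dex, KO and WT, where Dex and no Dex did not differ past the threshold. For Id1 it was KO, no Dex, Dex and WT, for Id4 Dex, no Dex, WT and KO, and the neighbours in both orders differed by called changes, except that no Dex was not tested against WT. Bmp4 made up 65.1% of the Dex ligand sum of 52 FPKM and 20.6% of the no Dex sum of 17.1 FPKM. Id4 made up 8.44% of the Dex Id sum, against 2.35% in WT and 0.232% in KO.

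Within each culture the course from day 0 to day 6 differed between Bmp4 and Id4 and between cultures. Bmp4 fell by 4.29 ± 0.33 in KO, 4.17 ± 0.33 in no Dex, 2.59 ± 0.33 in WT and 1.38 ± 0.33 in Dex. Id4 rose by 4.33 ± 0.08 in Dex, 2.37 ± 0.08 in no Dex and 1.56 ± 0.08 in WT, and in KO it differed by -0.11 ± 0.08 (limma adjusted p = 0.2). Rescaling by median-of-ratios factors shifted these changes over all genes by a median of -0.13 in no Dex and -0.10 in Dex, far less than their size. Bmp7 was intermediate on day 4, at 10.4 and 10.6 FPKM in no Dex and 7.41 and 8.03 in Dex, between KO and WT. Nog on day 4 measured 1.44 and 1.15 FPKM in no Dex and 1.31 and 1.72 in Dex, all above both WT libraries, while Chrd measured 1.87 and 1.79 in no Dex and 1.31 and 1.37 in Dex, the last pair below WT. Id2 on day 4 measured 31 and 28.4 FPKM in no Dex and 20.1 and 21.2 in Dex, and Id3 107 and 113 in no Dex and 157 and 152 in Dex. The Id genes thus differed in opposite directions between Dex and no Dex on that day, Id1 and Id2 lower and Id3 higher.

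Duplicate libraries of Bmp4 spread more than those of the other 9 genes. The gap between its duplicates exceeded the 95th percentile of genes of similar level in 10 of 16 groups, with a median percentile of 96.9, where the medians of the others lay between 27.6 and 58.7. The widest gap was in Dex at day 4, at 12.2 and 4.69 FPKM, a factor of 2.61. This is why the SE of Bmp4, which the fit shares over all 16 groups, was 0.33 where that of Id1 was 0.03. A Bmp4 difference well under 1 could not be called in this fit. The day 2 difference of KO against WT, -0.53 ± 0.33, was thus not called, although the libraries did not overlap. Bmp4 then measured 23.4 and 29.9 FPKM in KO and 40 and 37.4 in WT. In a limma fit of the compared groups alone this difference passed (adjusted p = 0.0461).

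**Figure D4:**
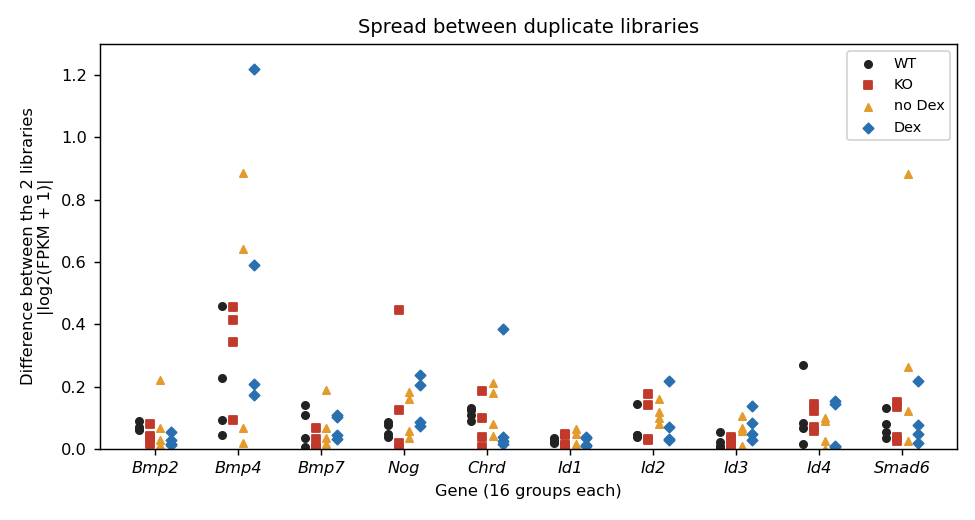
Absolute difference of log2(FPKM + 1) between the 2 libraries of each group (y axis) for each gene (x axis), 16 groups per gene, coloured by culture. Bmp4 has the largest gaps, followed by the no Dex day 2 pair of Smad6 (2.61 and 0.96 FPKM).

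The wider pathway was read from 59 further genes, of which 42 passed the filter. In KO against WT at day 6, 33 of the 42 were called, with a median change of 0.18, beside 65.1% called and a median of -0.03 over all tested genes. Of these, 22 were higher (30.9% of all tested genes) and 11 lower (34.2%). All 3 tested ligands, Bmp5, Bmp6 and Gdf7, were higher. Their group means reached 1 FPKM only at day 6 in cultures other than WT, so the filter favoured that direction in advance. Of 9 extracellular regulators 2 were higher and 6 lower. Receptors and co-receptors gave 6 higher and 2 lower of 10, SMADs and other transducers 4 higher and 1 lower of 8, and other responsive genes 7 higher and 2 lower of 12. Msx1, a homeobox target of BMPs in dorsal neural tissue, measured 1.87 and 1.82 FPKM in WT, 52.5 and 54.5 in KO, 20.1 and 20.8 in no Dex and 12.6 and 12.7 in Dex. It was thus highest in KO and lower with Dex than without. Its relative Msx2 measured 0.99 and 0.64 FPKM in WT, 8.57 and 8.99 in KO, 6.14 and 6.61 in no Dex, and 14.6 and 14.1 in Dex, where it was highest. Gdf7, a ligand of the roof plate, went with Msx1, at means of 0.255 FPKM in WT, 4.74 in KO, 2.46 in no Dex and 1.15 in Dex, and it passed the filter only through the last 3 of these groups. Rgma, a BMP co-receptor, rose from 33.4 FPKM in WT to 121 in KO (1.83 ± 0.14).

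Genes that were lower in KO at day 6 included secreted antagonists and a receptor. Grem1, an antagonist of BMP2, BMP4 and BMP7, measured 7.66 and 7.65 FPKM in WT, 0.06 and 0.11 in KO, and 0.1 to 0.17 in no Dex and Dex. On day 4 it had measured 3.16 and 2.87 FPKM in Dex and 2.17 and 2.32 in WT. No Dex had 0.7 and 0.79 and KO 0.27 and 0.2 on that day. Bmper, a secreted BMP-binding protein, measured 3.35 and 2.64 FPKM in WT and at most 0.42 in the other 6 libraries of day 6. Chrdl1, a chordin-like antagonist, averaged 3.92 FPKM in WT, 0.515 in KO and 0.975 in Dex, and the type I receptor gene Bmpr1b 4.51, 0.35 and 0.805. Fst, which binds activins and BMPs, averaged 23.2 FPKM in WT and 8.92 in KO. Earlier it was the higher in KO, with 9.03 and 8.33 against 2.27 and 1.63 FPKM on day 2. On day 4 Fst measured 14.4 and 14.5 FPKM in KO against 3.59 and 4.21 in WT. Chrdl1 on that day measured 2.56 and 2.55 against 1.95 and 1.89, and Bmper 0.95 and 1.18 against 0.66 and 0.72. So at day 6 Nog and Chrd were higher in KO while Grem1, Bmper, Chrdl1 and Fst were lower. Among the other extracellular regulators tested, Sostdc1 and Fstl1 were lower too, and Bmp1 and Twsg1 were higher (0.59 and 0.40).

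**Figure D5:**
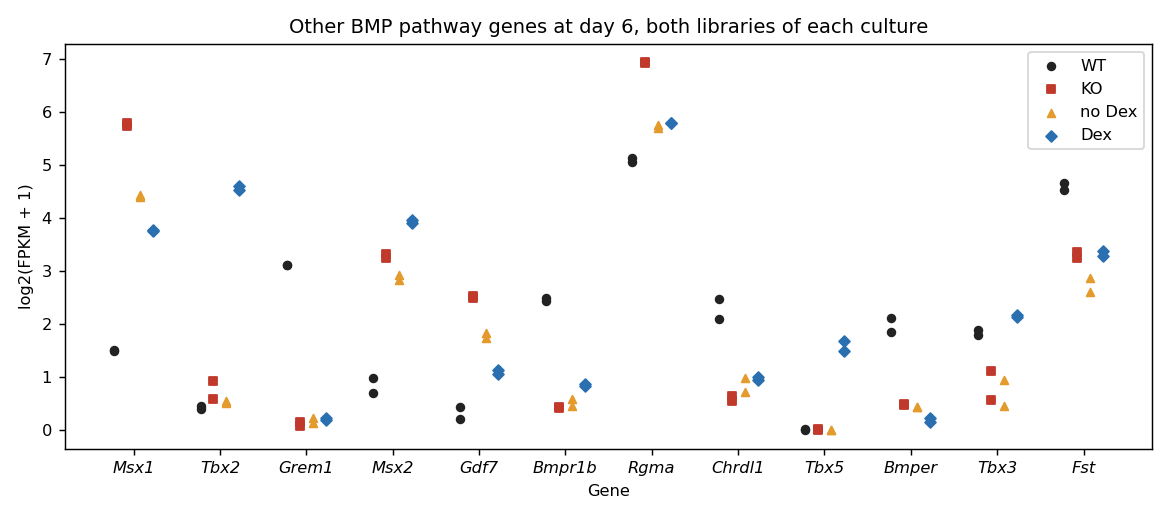
Log2(FPKM + 1) at day 6 (y axis) of the 12 further pathway genes with the largest changes (x axis); both libraries of each culture are drawn. Msx1 is highest in KO, Grem1, Bmpr1b and Bmper stand high in WT alone, and Tbx2 and Tbx5 stand high in Dex alone.

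In Dex against no Dex at day 6, 27 of these 42 genes were called, with a median of 0.03, beside 42.7% and 0.01 over all tested genes. Of these, 13 were higher (23.8% of all tested genes) and 14 lower (19%). The 13 include Tbx2 and Tbx5, whose calls were bound to follow from the filter. Msx3 and Bmp5, among the 14, averaged 1.57 and 1.285 FPKM without Dex at day 6 and 0.46 and 0.7 with it. The filter may thus have favoured their calls as lower. Several T-box genes are among the 12 shown. Tbx2, a BMP-responsive repressor of the dorsal optic vesicle, measured 22.2 and 23.2 FPKM with Dex, 0.46 and 0.43 without, 0.9 and 0.5 in KO and 0.32 and 0.37 in WT. It passed the filter through the Dex libraries of day 6 alone, so its call was bound to follow and no fitted change is given. Tbx3, its close relative, measured 3.54 and 3.41 FPKM with Dex, 0.94 and 0.38 without, 1.16 and 0.48 in KO and 2.73 and 2.49 in WT. Tbx5, which marks the dorsal retina, measured 2.2 and 1.84 FPKM with Dex and is listed at 0 in both no Dex libraries and at 0.01 to 0.02 in WT and KO; it too passed the filter only through those libraries.

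Markers of other cell types moved with these groups, and their part in the results was not tested. The 6 roof plate and dorsal midline markers (which include Msx1 and Gdf7) summed at day 6 to 7.55 to 8 FPKM in WT, 123 to 126 in KO, 71.1 to 73.2 in no Dex and 33.8 to 34.2 in Dex. Wnt1 and Msx1 made up most of the KO sum, at means of 58.7 and 53.5 FPKM, against 1.48 and 1.84 in WT. Ttr, also on this list, went the other way, at 3.79 FPKM in WT, 0.015 in KO, 0.075 in no Dex and 0.32 in Dex. The 6 neural crest markers summed to 15.6 to 15.9 FPKM in WT, 43.5 to 44.8 in KO, 52.6 to 53.4 in no Dex and 32.6 to 33 in Dex, with 5 of 6 below 1 FPKM in WT and none below it in the others. Sox9, which gave 12.3 FPKM of the WT sum, was lower in KO, at 8.6, and stood at 16.3 in no Dex and 14.4 in Dex, while the other 5 were higher in KO than in WT; Sox10 averaged 0.55 FPKM in WT and 14.2 in KO. The 5 neural progenitor markers summed to 382 to 393 FPKM in WT, 552 in both KO libraries, 591 to 594 in no Dex and 581 to 585 in Dex. Among them Fabp7 averaged 13.6 FPKM in WT, 189 in KO, 169 in no Dex and 73.1 in Dex, and Sox3 was lower in KO than in WT, at 145 and 175. The 6 extraembryonic endoderm markers ran the other way, at 66.9 to 67 FPKM in WT and 8.69 to 11.9 in the other cultures, where Dab2 gave 11.1 of the KO sum. The 5 eye field markers summed to 647 to 681 FPKM in WT, 117 to 118 in KO, 182 to 186 in no Dex and 416 to 417 in Dex, of which Pax6, shared with other neural cells, gave 112 in KO. The 6 surface ectoderm markers summed at day 6 to 58.9 to 62.3 FPKM in WT, 21.3 to 21.6 in KO, 22.5 to 23.4 in no Dex and 44.8 to 49 in Dex. The defining ones, Trp63, Krt5 and Krt14, were below 1 FPKM in every group, and the sums came from Krt8, Krt18 and Epcam, which other epithelial cells share. Krt8 averaged 20.5 FPKM in WT, 9.39 in KO and 16.2 in Dex, Krt18 24.8, 8.31 and 24.4, and Epcam 15.3, 3.77 and 6.21. The 6 mesoderm markers summed to 2.17 to 4.62 FPKM at day 6. The 6 pluripotency markers summed to 86.1 to 86.7 FPKM in WT and 28.4 to 33.4 in the others.

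Across the 16 group means, the 10 genes followed different neighbours. Correlations here are descriptions over points that share lines and days. Id2 and Id3 went together (Pearson r = 0.941), as did Bmp2 and Nog (0.93). By rank the pairs were less alike, with a Spearman rho of 0.921 for Id2 and Id3 and 0.732 for Bmp2 and Nog. Bmp2 averaged at most 0.42 FPKM outside KO, no Dex and Dex of day 6, so its Pearson values rest largely on those groups. Bmp4 ran against Id2 (-0.839) and Id3 (-0.827) and had no such relation with Id4 (-0.024). Among 11513 genes whose group means spanned at least 1 on the log2 scale, those close to Bmp4 included Actn1 (0.932) and Trim63 (0.928). The 3 closest to Bmp7 were Col5a1 (0.973), Timp2 and C2cd2, and for Bmp2 Vtn (0.988), Cyp4v3 and Islr. Nog was closest to Pantr1 (0.989), Pcdhb22 and Gm47962. Chrd had no close neighbour, its best being 4930515G13Rik (0.819), Hunk and Zfyve1. For Id1 they were Tnfrsf1a (0.925), Arhgap36 and Cbln1; for Id2 Rhoq (0.991), Meis3 and Cplx2; for Id3 Crabp2 (0.989), Mfap2 and Atf3. Id4 was closest to the signalling gene Wnt7a (0.972), to Sostdc1, a secreted antagonist of BMP and Wnt signals, and to A330074H02Rik. Before day 6 Id4 averaged at most 2.085 FPKM, against 56 in Dex of day 6, so its Pearson values rest largely on day 6 groups. With Nog, Id4 had a Pearson r of 0.755 and a Spearman rho of 0.262. Smad6 was closest to Sh3bp1 (0.953), Agrn and Ppdpf.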

How the data were processed

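The labels' processing notes name STAR, Cuffdiff and mm10, without a role or version. The deposited values were FPKM computed by the authors, rounded to 2 decimals, in a single table whose columns were joined to samples through the library names in the labels. Per the labels' protocols, duplicates had separate library preparation and sequencing rounds. Gene positions are from GENCODE M21 (GRCm38) and promoter windows from RefSeq (GRCm38.p6).

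From these values log2(FPKM + 1) was computed, and genes reaching 1 FPKM in at least 2 of 32 libraries were kept (16276). A single limma fit (version 3.58.1 in R 4.3.3, mean-variance trend) held 16 group means, with 16 residual degrees of freedom, and p-values were adjusted over all tested genes by Benjamini-Hochberg, two-sided. The fit was tested on simulated data with independent noise. Changes were placed only in genes well above the filter in WT of day 6, so low genes such as Bmp2 were not covered. FPKM carry no counts, so the spacing of low values was used to estimate depth. Of these values 83.4% to 91.3% came within 0.2 of a whole number of fragments, where 40% would by chance at a depth fixed beforehand. The depth was fitted to the same values, so this share is no independent check of it. Limits from 3 fragments cover counting error only. The squared differences between duplicates exceeded counting noise by a median factor of 2.08, and most in WT at day 0, by 9.63.

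Alternatives were a pseudocount of 0.1, no filter, median-of-ratios rescaling, the replicate number as a block, the compared groups alone, and leaving out each library. The 10 members, the pathway and marker lists, the tests and the alternatives were chosen with earlier results of these data known. Further pathway genes were named when called with a log2 change of at least 1 at day 6 in KO against WT or Dex against no Dex, at most the 12 largest. The 3 most similar genes of each member were taken by Pearson r over group means. A gene within this rule is not reported here. Of the pathway lists, 17 genes did not pass the filter.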

Additional observations from a re-analysis of the deposited data

Results flagged for a closer look

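For 8 genes the difference between KO and WT changed from day 0 to day 6 by a called interaction in limma. On the log2(FPKM + 1) scale the KO difference moved up by 1.49 for Bmp2, 1.98 for Nog, 1.55 for Chrd, 1.97 for Id1 and 1.04 for Id3. It moved down, with changes of -1.70 for Bmp4, -0.64 for Bmp7 and -1.68 for Id4. The Bmp7 value reflects a KO excess at day 0 that was absent from the day 6 values. With a pseudocount of 0.1 the change was 3.18 for Bmp2 and -0.98 for Bmp7. Bmp2 passed the filter only through the KO, no Dex and Dex cultures of day 6, so its call was favoured in advance.

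For 7 genes the difference between Dex and no Dex changed in the same way. It moved up by 2.79 for Bmp4, 1.02 for Bmp7, 0.54 for Id3, 1.96 for Id4 and 1.03 for Smad6, and it changed by -0.32 for Id1 and -0.58 for Id2. For Bmp7 and Id3 the Dex culture was the lower of the pair at day 0 and the higher at day 6. Id1 turned the other way, from 0.17 at day 0 to -0.15 at day 6, both called. The Dex difference of Id2 went from 0.43, called, to -0.15, not called. The day 0 samples carry a Dex label that the treatment protocol does not list.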

How the results depend on the processing

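Of 250 member changes tested, 169 were called, and none of the 169 reversed under any alternative run. Calls lost were 6 with a pseudocount of 0.1, 4 without the filter on low values, 3 with median-of-ratios rescaling, 16 with the compared groups alone and 24 on leaving out some library; the cause was not tested. The count of called members stayed within 1.5 times its value under every alternative in 24 of 25 comparisons. The exception was Dex against WT at day 4, where 8 members were called and between 5 and 7 on leaving out a library. Adding the replicate number as a block left 24 of 25 counts equal and took KO against WT at day 2 from 7 to 6. The numbers did not pair the libraries: over 120 pairs of groups, deviations of same-numbered libraries correlated between -0.088 and 0.125, with 4 above 0.1. Among changes that were not called, leaving out a library gave values from -0.057 to 0.0513 for Bmp7 at day 6 of KO against WT, in place of -0.0029, and from -0.675 to 0.212 for Bmp4 at day 6 of no Dex against KO, in place of -0.23. Rescaling moved the median of all genes by over 0.1 only in day 6 against day 0 of no Dex (-0.13) and Dex (-0.10). It also moved the share of higher calls from 39.4% to 53.9% at day 0 of no Dex against KO and from 28.7% to 45.3% in Dex against no Dex at day 2. Changes of Bmp2 at days 0 to 4 lie near the limit that depth sets.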
